A study of Mus musculus with 24 samples.

Results

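Bone marrow stroma co-cultured with hematopoietic stem and progenitor cells (HSPC) was compared with bone marrow stroma profiled in vivo, to find which transcript programs of stroma in the animal the co-culture has and which it lacks. The comparison took 6 of the 24 RNA-seq libraries of the series, chosen by their titles: 3 libraries of BMS-Akt1 CC+HSPC and 3 of BMS-In vivo. The mice were C57BL/6J, and polyA RNA extracted with Trizol was sequenced as paired ends. Titles of the cultured stroma carry the word Akt1, the name of a kinase of growth factor signalling, and titles of the in vivo stroma do not. The labels do not say what was done to Akt1. Culture, that mark and the way the cells were obtained change together between the groups and cannot be told apart. The characteristics of the co-culture name hematopoietic stem cells as the added cells, where the titles say HSPC. Isolation markers, culture time and the age of the mice are not given in the sources used here. Whether the replicates are separate cultures or mice is likewise not given. The p-values therefore set a group difference against the scatter of these libraries only, which could be technical scatter. Another 3 libraries of stroma cultured without added cells (BMS-Akt1 CC-Alone) shared the fit, and 6 libraries of marrow endothelium are used at the end.

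Marrow stroma is the non-hematopoietic connective tissue of the marrow cavity. In mice, perivascular stromal cells marked by the leptin receptor (Lepr) are a main source of Cxcl12 and of stem cell factor (Kitl), which retain and sustain hematopoietic stem cells, and they give rise to osteoblasts and fat cells. Osteoblasts lay down bone matrix under the transcription factors Runx2 and Sp7, chondrocytes make cartilage under Sox9, and pericytes and smooth muscle cells ensheath the vessels. Stromal cells grown in culture are typically fibroblast-like.

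Levels are given in FPKM (fragments scaled to transcript length and to library size) as deposited, with ± as the SD over 3 libraries. Differences are of log2(FPKM + 1), co-culture minus in vivo, with ± as the standard error of the limma fit, and this scale understates the change of low genes. A gene was called higher or lower at a Benjamini-Hochberg adjusted p under 0.05 and a log2 difference of at least 1, which is 2-fold. A gene was placed within 2-fold when its mean was at least 5 FPKM in both groups and the 95% interval of its difference lay wholly between -1 and 1. For a gene listed at 0 throughout a group, the size of the difference depends on the 1 added before the logarithm. In the main comparison only the levels of such a gene are given, while counts and medians include it.

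Libraries of each group resembled each other, with Pearson's r across genes of 0.995 to 0.997 in co-culture and 0.995 to 0.996 in vivo on the log2 scale. Between 12797 and 12959 genes reached 1 FPKM per co-culture library and between 13845 and 13961 per in vivo library, where the 10 highest genes held 15.3% to 17% of the summed FPKM against 8.4% to 8.93% in co-culture. Both groups carried mesenchymal markers, all 12 with a mean above 1 FPKM in each group, but not at like levels. Of the 12, 5 were called lower in co-culture (Pdgfra, Pdgfrb, Thy1, Eng and Dcn), where 21.5% of all genes were. Eng, for example, was at 33 ± 1.96 against 109 ± 7.9. Prrx1 (883 ± 87.2 against 286 ± 9.22) and Cd44 (226 ± 9.17 against 64.7 ± 2.36) were higher, and Twist1 (133 ± 2.05 against 147 ± 18.1) was within 2-fold. Akt1 was at 520.4, 462 and 497 FPKM in co-culture and at 254, 234 and 284 in vivo (log2 difference 0.94 ± 0.08, adjusted p = 1.95e-06), all co-culture libraries above all in vivo libraries, and its difference did not reach 2-fold. Stroma cultured alone had 634 ± 17.1 FPKM of Akt1. In co-culture replicate 2, some secreted and inflammatory genes stood far above the other 2 libraries, for example Cxcl5 at 96.7, 810.3 and 130 FPKM, and such values are given per library below.

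Blood cell transcripts differed in kind between the groups. The 13 erythroid markers tested summed to 40694 to 49515 FPKM per in vivo library and to 23 to 34.5 per co-culture library. All 13 were called lower, where 21.5% of all genes were. Hba-a1, an alpha globin, was at 20804, 17162 and 17050.2 FPKM in vivo and listed at 0 in co-culture, and the erythroid anion exchanger Slc4a1 at 706, 1014 and 784 and likewise at 0. The globin genes are near copies of each other, so the split of reads among them is uncertain. Pan-leukocyte markers summed to 47 to 66.2 FPKM in co-culture, 226 to 307 in vivo and 0 to 0.9 in stroma alone. Ptprc (CD45), which defines blood cells, was at 0.36, 0.47 and 0.33 FPKM in co-culture and at 7.42, 3.77 and 4.02 in vivo.

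Granulocyte markers summed to 719 to 939 FPKM in co-culture and 1649 to 3578 in vivo. Of 14 tested, 5 were called higher (Mpo, Elane, Prtn3, Ctsg and Ms4a3), where 15.7% of all genes were, and 7 lower (Camp, Ltf, Ngp, S100a8, S100a9, Mmp8 and Csf3r), where 21.5% were, while Lcn2 and Cebpe were not called. Mpo, Elane, Prtn3 and Ctsg encode proteins of the primary granules of early neutrophil precursors. Elane, neutrophil elastase, was at 121, 93.4 and 109.7 FPKM against 21, 7.15 and 16.8 in vivo (log2 difference 2.88 ± 0.31, adjusted p = 1.35e-05), and Mpo at 62 ± 0.997 against 26.2 ± 9.62, a call that was lost without in vivo replicate 2 (difference 0.95). Among those lower, Ngp was at 41.5, 32.6 and 21.3 against 369.9, 199.6 and 158 (log2 difference -2.85 ± 0.31, adjusted p = 1.54e-05) and S100a8 was at 240.1 ± 47.9 against 827 ± 393. In vivo replicate 1 was the highest of its group for each of these 4 genes, and Elane, Mpo, Ngp and S100a8 were listed at 0 in stroma alone. Of 9 tested HSPC markers 4 were called lower, where 21.5% of all genes were, and 3 higher, where 15.7% were. Of the 12 markers listed, 6 were under 1 FPKM in all co-culture libraries. Kit, the stem cell factor receptor, was at 0, 0.31 and 0.35 FPKM in co-culture and at 71.8, 63.8 and 79.5 in vivo, while Cd34 (319 ± 11 against 14.1 ± 5.03) and Ly6a (308 ± 41 against 51.2 ± 11.9) were higher in co-culture and were also present in stroma alone (252 ± 25.3 and 70.5 ± 14.4). Endothelial markers were low in both groups, at summed values of 36.5 to 62.5 and 26.5 to 37.1 FPKM over 14 genes, with Cldn5 and Robo4 listed at 0 in every one of these libraries. Monocyte and macrophage markers summed to 46.9 to 59.4 FPKM in co-culture and 197 to 282 in vivo, and skeletal muscle markers to 7.1 to 10.6 and 77.8 to 115.

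Of 14351 genes tested, 2260 (15.7%) were called higher in co-culture and 3089 (21.5%) lower, and 6985 (48.7%) were within 2-fold. All 3 libraries of one group lay above all 3 of the other for 45% of genes in favor of co-culture and for 37% in favor of in vivo, so separation of the groups by itself is common here. The median difference over all genes was 0.10 and became -0.03 after trimmed-mean scaling, a shift of the whole scale that is small beside the differences named below. By presence, 11732 genes reached 5 FPKM in every in vivo library, and 10346 of them (88.2%) did so in every co-culture library. Another 576 of the 11732 (4.91%) were under 1 FPKM in all co-culture libraries, and 509 of these were also under 1 in all libraries of stroma alone. In the other direction, 135 of 11025 genes at 5 FPKM or more in co-culture (1.22%) were under 1 in all in vivo libraries.

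**Figure D1:**
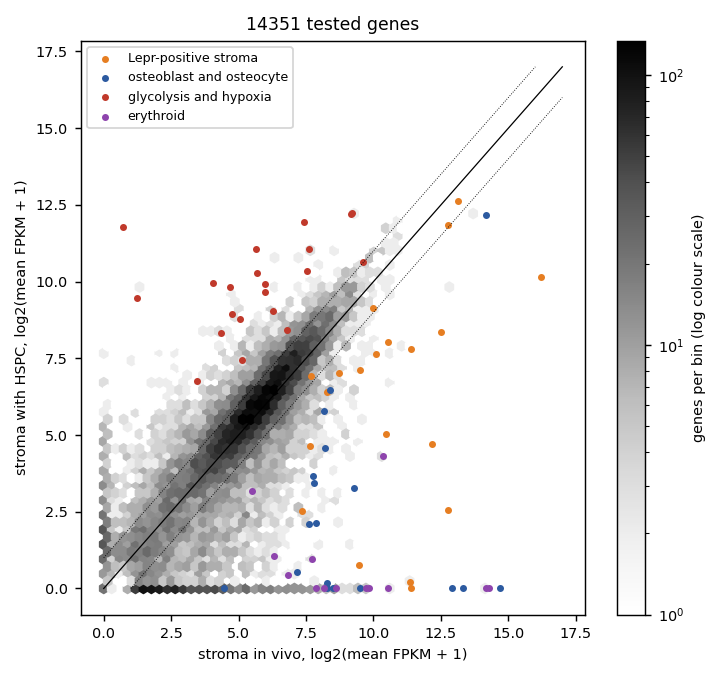
Mean level of 14351 tested genes in stroma with HSPC (vertical axis) against stroma in vivo (horizontal axis), both as log2(mean FPKM + 1), with grey hexagons shaded by the number of genes and dotted lines at 2-fold. Genes of the Lepr-positive stroma, osteoblast and erythroid lists lie on or below the diagonal, and all 21 genes of the glycolysis and hypoxia list lie above it.

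The genes with the largest rises in co-culture included Car9 and Egln3, described with glycolysis below, Crabp2 (862 ± 280 against 1.34 ± 1.23 FPKM), a retinoic acid binding protein, Apln (578 ± 105 against 1.03 ± 0.205), which encodes the peptide apelin, and Penk (9837 ± 2040.2 against 42.5 ± 4.01), the enkephalin precursor. Cdsn, known as corneodesmosin of the epidermis, was at 971 ± 174 against 1.52 ± 0.341, and the secreted carbonic anhydrase Car6 was at 251 ± 42.9 and listed at 0 in vivo. The largest falls were in bone genes, globins, Adipoq, Lepr, Gdpd2 and Gpx3. Gpx3, a secreted glutathione peroxidase, was at 2.31, 2.96 and 2.1 FPKM in co-culture and 8881, 8114 and 8920.3 in vivo (log2 difference -11.29 ± 0.10, adjusted p = 1.41e-12), and Gdpd2, a glycerophosphodiester phosphodiesterase gene, was listed at 0 in every co-culture library and at 3583, 3300.2 and 3314 in vivo.

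The Lepr-positive stromal program was largely lacking. Of its 20 genes 16 were called lower in co-culture, against 21.5% of all genes tested, none was called higher, and the median difference was -3.35, beside 0.10 over all genes. Lepr was at 0.51, 0 and 0 FPKM in co-culture and at 2789, 2470 and 2499 in vivo, and Adipoq, the adiponectin gene, was listed at 0 and at 2897, 2489.9 and 2706. The groups are far apart for both genes, and stroma alone was likewise listed at 0. In bulk RNA, fewer cells of a type and less RNA per cell cannot be told apart, here and for every program below.

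Cxcl12 and Kitl were lower in co-culture but still expressed. Cxcl12, the chemokine that retains stem cells, was at 793, 1781 and 814 FPKM in co-culture and at 78598.5, 69149.9 and 77753 in vivo (log2 difference -6.16 ± 0.28, adjusted p = 3.37e-08). Kitl was at 300.5, 227 and 252 against 1582, 1409 and 1468 (log2 difference -2.52 ± 0.09, adjusted p = 8.33e-09). No library of one group reached the other for either gene, co-culture replicate 2 had the most Cxcl12 of its group, and stroma alone stood between at 2696 ± 10.7 for Cxcl12 and 337 ± 3.02 for Kitl. Vcam1, an adhesion molecule for blood cells, fell from 2707 ± 474 in vivo to 223 ± 72.5 in co-culture, Gas6, a ligand of the TAM receptors, from 5765 ± 427 to 326 ± 110.1, and Il7, the lymphoid growth factor, from 162 ± 14.1 to 4.71 ± 0.685.

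**Figure D2:**
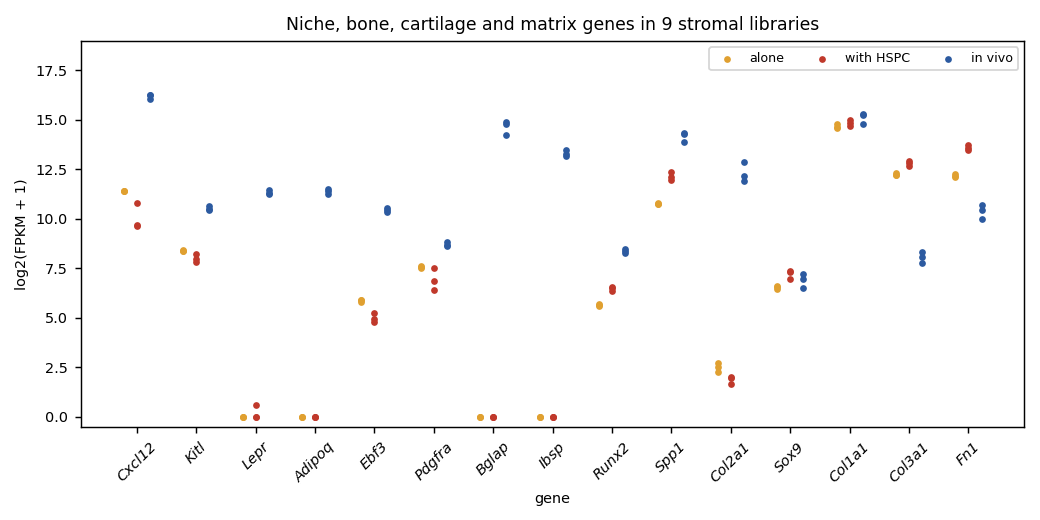
Level of 15 niche, bone, cartilage and matrix genes in each of 9 stromal libraries as log2(FPKM + 1), with 1 point per library for stroma alone, with HSPC and in vivo. Lepr, Adipoq, Bglap and Ibsp are at or near 0 in both cultured groups and high in vivo, Sox9 and Col1a1 overlap between the groups, and Col3a1 and Fn1 are higher in the cultured groups.

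Transcription factors of this population fell to different degrees. Ebf3, which keeps Lepr-positive cells from turning to bone, was at 30.3, 36.8 and 27.2 FPKM against 1499, 1376 and 1316 (log2 difference -5.44 ± 0.10, adjusted p = 8.55e-11), and Ebf1 at 23.8 ± 10 against 199 ± 21.4. Foxc1, required for these cells in mice, differed less (83.8 ± 5.13 against 305 ± 9.46; log2 difference -1.85 ± 0.06, adjusted p = 2.65e-09). The receptors Pdgfra (128 ± 51.5 against 421 ± 27.8) and Pdgfrb (198 ± 4.1 against 1094 ± 163) were both called lower. The members not called were Igfbp4, within 2-fold at 6387 ± 301 against 9052 ± 711, and Igfbp5, Angpt1 and Fbln5, with differences of -0.92, -0.77 and -0.87. Igfbp5 (-1.06) and Fbln5 (-1.02) were called lower after trimmed-mean scaling, Fbln5 also after quantile normalization (-1.01), and Igfbp5 also without co-culture replicate 3, just past the limit. Igfbp5, an IGF binding protein, was higher with HSPC than in stroma alone (2.08 ± 0.14, adjusted p = 4.72e-06), and Angpt1, the ligand of the Tie2 receptor, was lower (121 ± 22.1 against 483 ± 7.75 FPKM).

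The bone-forming program had the lowest median of the 24 programs, -5.89: all 18 tested members were called lower in co-culture and 17 of them by at least 4-fold, where 12.2% of all genes were. Of the 18, 7 were listed at 0 in all 3 co-culture libraries (Bglap, Bglap2, Ibsp, Sp7, Alpl, Dmp1 and Mepe). Bglap, which encodes osteocalcin, was at 19574.5, 30911 and 28652 FPKM in vivo, and Ibsp, bone sialoprotein, at 10021, 9373 and 11634. Sp7 (osterix), the factor that commits cells to bone, was at 322, 394 and 375 in vivo and Alpl, the alkaline phosphatase of mineralization, at 603, 699 and 884, again against 0 in each co-culture library. Bglap and its neighbours Bglap2 and Bglap3 are near copies, so the share of each is uncertain.

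Other bone genes remained measurable in co-culture. Runx2, the earlier bone factor, was at 81.6, 93.4 and 89.3 FPKM in co-culture and 329, 357 and 312 in vivo (log2 difference -1.90 ± 0.07, adjusted p = 5.14e-09), and Spp1, osteopontin, at 4390.4, 4059 and 5277 against 15079.8, 20140.2 and 20388 (log2 difference -2.01 ± 0.16, adjusted p = 1.91e-06). Both were nearer to in vivo in co-culture than in stroma alone, where Runx2 was at 49.1 ± 1.32 and Spp1 at 1745 ± 59.9, and the differences between co-culture and stroma alone were 0.83 ± 0.07, adjusted p = 1.09e-05 and 1.38 ± 0.16, adjusted p = 0.000112. Phospho1, a phosphatase of matrix vesicles, was at 33.9, 88.5 and 39.1 against 178, 297 and 384, with 0.933 ± 0.17 in stroma alone. The parathyroid hormone receptor Pth1r (8.76 ± 1.91 against 627 ± 126) and the osteocyte gene Dmp1 (listed at 0 against 306 ± 83.1) were among the lower members.

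The promoter of Bglap is shown because it is the classic target of Runx2, whose transcript remained while that of Bglap was listed at 0. The 250 bases before its start (RefSeq, GRCm38.p6, chr3:88384467-88384716, minus strand, matched by symbol) hold 1 match to the Runx core ACCACA or its reverse complement TGTGGT, in capitals, at 132 bases before the start. At least 1 match was found in 5 of 13 osteoblast genes with a promoter in that table (38.5%), beside 15.9% of all 27025 genes of that table and 14% of its 32851 promoters, all of the same length. The motifs searched here and below were chosen after the values were seen, and a match is a description of letters, not of binding. Each list was compiled from known genes of its program, so its share of matches does not test the part of a factor.
Bglap: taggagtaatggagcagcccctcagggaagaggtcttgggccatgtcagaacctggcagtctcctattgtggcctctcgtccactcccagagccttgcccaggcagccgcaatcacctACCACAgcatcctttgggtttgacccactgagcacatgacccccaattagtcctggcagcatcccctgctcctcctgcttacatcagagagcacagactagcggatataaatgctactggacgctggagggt

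Cartilage matrix genes were lacking as well, while the chondrocyte regulators were not. Of 20 tested genes 15 were called lower, each by at least 4-fold, where 12.2% of all genes were. None was called higher, and the median was -4.91. Col2a1, the main collagen of cartilage, was at 3.07, 2.17 and 2.88 FPKM in co-culture and 4579, 3809 and 7569 in vivo (log2 difference -10.43 ± 0.23, adjusted p = 2.97e-10), and Acan, aggrecan, at 0.28, 0.57 and 0.7 against 576, 408 and 821. Sox9 was at 156, 125 and 163 against 124, 89.3 and 148 (95% interval of the difference -0.06 to 0.69) and overlapped between the groups, while Sox5 was at 11.3, 9.99 and 11.2 against 12.7, 11.5 and 19.3, with all in vivo libraries slightly above. Both were within 2-fold. Sox6, Col11a1 and Hapln1 were not called, the last pair at 1774 ± 276 against 958 ± 283 and 248 ± 59.1 against 467 ± 193 FPKM. They lay near the limit: Col11a1 was called higher without co-culture replicate 2 (1.05) or in vivo replicate 3 (1.14), Hapln1 lower without in vivo replicate 2 (-1.09), and Sox6 lower without replicate 1 of co-culture (-1.03) or in vivo (-1.05). After trimmed-mean scaling Hapln1 (-1.01) and Sox6 (-1.08) were called lower, and after quantile normalization Hapln1 was as well (-1.08). In vivo replicate 3 was the highest of its group for Col2a1, Acan and Chad (2731, 2072 and 3961), the gene of chondroadherin.

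Collagen genes outside cartilage were present in both settings, but in another mix. Of 16 collagens outside cartilage 8 were called higher in co-culture, against 15.7% of all genes, and 1 lower. Type I collagen was high in both: Col1a1 was at 26755, 32453 and 29551 FPKM in co-culture and 28022, 38741 and 41002 in vivo (log2 difference -0.26 ± 0.33, adjusted p = 0.472), and the groups overlapped. Col3a1, the partner of type I collagen in soft tissue, was at 6488, 7762 and 7280.2 against 323, 221 and 268 (log2 difference 4.74 ± 0.14, adjusted p = 1.51e-09), all co-culture libraries far above. Col5a1 (2221 ± 146 against 346 ± 27.6), Col6a3 (1534 ± 67.7 against 248 ± 44.9) and Col12a1 (1017.5 ± 192 against 230 ± 50.7) were also higher, whereas Col6a1, Col6a2 and the basement membrane collagen Col4a1 were within 2-fold. Col4a2, the other type IV collagen of the list, was called higher (505 ± 19.4 against 235 ± 32.1, difference 1.11). Col18a1 was the member called lower (8.18 ± 3.01 against 35.8 ± 7.49).

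Elastic fiber and matricellular genes divided in the same list. Of 20 genes 12 were called higher, where 15.7% of all genes were, with a median of 1.73. Another 5 were called lower, a share near the 21.5% of all genes. Fn1, fibronectin, was at 11596, 12377 and 13555 FPKM in co-culture and 1025, 1416 and 1696 in vivo (log2 difference 3.21 ± 0.18, adjusted p = 1.28e-07), Postn, periostin, at 6135, 5811 and 5621 against 159.8, 250.1 and 223 (log2 difference 4.81 ± 0.15, adjusted p = 2.56e-09), and Lox, which crosslinks collagen and elastin, at 7448, 7055 and 7923 against 568.5, 583 and 741 (log2 difference 3.57 ± 0.11, adjusted p = 2.86e-09). All 3 genes separated the groups fully. Fbln2 (986 ± 70 against 8.16 ± 2.93), Mfap4 (159.8 ± 35.6 against 1.51 ± 1.37) and Eln, elastin (190.1 ± 67.7 against 5.18 ± 0.77), had the largest differences, while Tnc, tenascin C (315 ± 65.2 against 2652 ± 163), Ctgf (481 ± 140 against 4737 ± 597), Cyr61 (926 ± 117 against 6726 ± 3031) and Mgp, the matrix Gla protein (4459 ± 683 against 12403 ± 3829), were lower. Sparc, abundant in bone and in fibroblasts, did not differ by the test (21235 ± 615 against 29151 ± 6163, adjusted p = 0.169).

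The small leucine-rich proteoglycans, which decorate collagen fibrils, differed in both directions, with a median of -0.03. Of the 10 genes 3 were called higher, 4 lower and 3 were within 2-fold. Over all genes these shares were 15.7%, 21.5% and 48.7%. Dcn, decorin, was at 798, 913 and 714 FPKM in co-culture and 2518, 3207 and 3288 in vivo (log2 difference -1.89 ± 0.12, adjusted p = 3.83e-07), and Lum, lumican, at 142 ± 29.7 against 1053 ± 132. Aspn, asporin, went the other way at 299.6, 644 and 397 against 29.6, 22.2 and 27.5 (log2 difference 3.96 ± 0.23, adjusted p = 1.89e-07). Bgn, biglycan, was high in both at 12447 ± 472 against 9246 ± 806, within 2-fold, and was called higher under quantile normalization with a difference of 1.31.

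Of 18 matrix proteases and inhibitors 10 were called higher, where 15.7% of all genes were. Another 5 were called lower, a share near the 21.5% of all genes. The collagenase of bone and cartilage, Mmp13, was at 30.1, 64.2 and 43.8 FPKM in co-culture and 2760.5, 3584 and 2988 in vivo (log2 difference -6.10 ± 0.24, adjusted p = 1.17e-08). Mmp3, stromelysin, was at 213, 1245 and 324 against 0.97, 0.72 and 0 (log2 difference 8.20 ± 0.55, adjusted p = 4.97e-07), and its co-culture value rests most on replicate 2, although all co-culture libraries were above all in vivo libraries. The inhibitor Timp2 was higher (2862 ± 33 against 643 ± 81.6) and the protease inhibitor Serpine2 lower (992 ± 63.3 against 9895 ± 601).

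**Figure D3:**
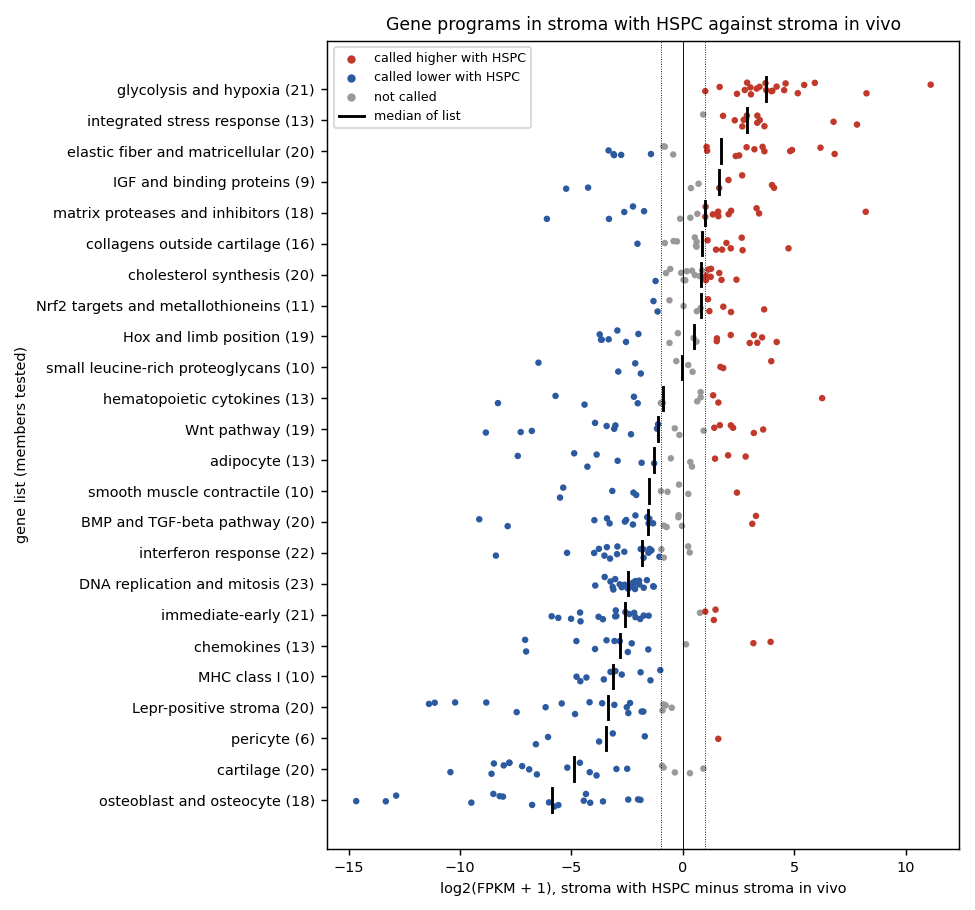
Difference of log2(FPKM + 1), stroma with HSPC minus stroma in vivo (horizontal axis), for each tested gene of 24 lists (rows, ordered by median; black bars are medians, dotted lines 2-fold). The osteoblast and cartilage lists have the lowest medians, -5.89 and -4.91, and the glycolysis and hypoxia list the highest, 3.74. Where a gene is listed at 0 in a group, its position depends on the 1 added before the logarithm.

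Of the mural cell genes, pericyte genes were mostly lower and contractile genes were divided. Of 6 pericyte genes 5 were called lower, where 21.5% of all genes were. Rgs5, Abcc9 and Kcnj8 were listed at 0 in co-culture and at 99 ± 31, 65.5 ± 4.64 and 7.97 ± 1.82 FPKM in vivo. Notch3, the mural Notch receptor, was at 18.4, 44.5 and 28.1 against 453, 359 and 391 (log2 difference -3.76 ± 0.25, adjusted p = 4.48e-07) and was higher than in stroma alone (3.08 ± 0.0513; 2.86 ± 0.25, adjusted p = 1.83e-05). Cspg4, which encodes NG2, was the member called higher (188 ± 32.8 against 62.7 ± 18.1). Among 10 tested contractile genes 5 were called lower, where 21.5% of all genes were, such as Myl9 (5.62 ± 2.99 against 284 ± 36). Another 3 were within 2-fold, where 48.7% were: Cald1 (342 ± 7.68 against 289 ± 18), Tpm2 (38.9 ± 8.14 against 43.8 ± 7.06) and Smtn. Tpm1 was not called (difference -0.99). Acta2, smooth muscle actin, was higher at 103, 194 and 106 against 15.5, 25.4 and 31.1 (log2 difference 2.42 ± 0.28, adjusted p = 2.82e-05), though below stroma alone at 622 ± 73.6.

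Genes of the fat lineage had members in both directions. The adipogenic factors Pparg, at 4.78, 6.8 and 5.82 FPKM in co-culture and 106, 86.6 and 102 in vivo (log2 difference -3.87 ± 0.13, adjusted p = 4.11e-09), and Cebpa, at 25.4 ± 3.67 against 513 ± 36, were lower, and the fatty acid transporter Cd36 was listed at 0 against 171 ± 32.9. Lpl, lipoprotein lipase, counted with the Lepr-positive list, was at 0.713 ± 0.919 against 708 ± 51.7. The lipid droplet gene Plin2 (364 ± 15.7 against 88.8 ± 6.95), its relative Plin4 (13.3 ± 2.14 against 4.31 ± 0.947) and Dgat2, of triglyceride synthesis (254 ± 37 against 35.3 ± 4.75), were higher. Another lipid droplet gene, Plin1, was listed at 0 against 1.46 ± 0.284, and Scd1, the fatty acid desaturase, was lower (41.9 ± 10.5 against 333 ± 126). Fasn, Pnpla2 and Lipe were within 2-fold. In all, 7 of 13 tested genes were called lower, where 21.5% of all genes were, and 3 higher, where 15.7% were. The mature fat cell genes Lep, Retn and Cidec were listed at 0 in both groups. Fabp4, a fatty acid binding protein, was lower (3.07 ± 0.416 against 120 ± 23.2), and Adipoq is given above with the Lepr-positive list.

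Cytokines that act on blood cells differed in both directions. Of 13 tested cytokine genes 5 were called lower, where 21.5% of all genes were, and 3 higher, where 15.7% were, so the count of higher genes lies near the background. Csf1, the macrophage growth factor, was at 399, 484 and 408 FPKM against 2115, 1592 and 2274 (log2 difference -2.20 ± 0.13, adjusted p = 1.77e-07), Il15 at 1.63 ± 1.41 against 119 ± 14.5, and Il6 was listed at 0 against 20.5 ± 3.66. The related heparin-binding factors Ptn (pleiotrophin) and Mdk (midkine) moved oppositely: Ptn was at 378, 682 and 407.5 against 5.94, 3.69 and 6.43 (log2 difference 6.25 ± 0.23, adjusted p = 7.4e-09), and Mdk was listed at 0 in co-culture and at 368, 291 and 289 in vivo. Stroma alone had still more Ptn (2139.8 ± 96.4) and was listed at 0 for Mdk. Angptl2 was higher (783 ± 97.9 against 306 ± 44.8) and Angptl4 was within 2-fold (694 ± 119 against 446 ± 91.3).

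Of 13 tested chemokines 10 were called lower, where 21.5% of all genes were, with a median of -2.84. Another 2 were called higher, a share near the 15.7% of all genes. Ccl2, which draws monocytes, was at 58.6, 165 and 75.1 FPKM in co-culture and 1587, 851 and 2021 in vivo (log2 difference -3.94 ± 0.40, adjusted p = 9.21e-06), and Cx3cl1, fractalkine, at 52.6 ± 12.5 against 379.6 ± 72.5. Cxcl9, an interferon-gamma target, and Ccl19, a lymphoid chemokine, were listed at 0 in co-culture and were at 138 ± 37.8 and 133 ± 31.7 in vivo. Cxcl5, a neutrophil chemokine, was called higher with all co-culture libraries above in vivo (26.3, 17.8 and 27.2 FPKM), but co-culture replicate 2 stood far above the others. Ccl5 was the other higher member (27 ± 14 against 1.15 ± 1.99). Pan-leukocyte markers, given above, were also lower in co-culture, and their part in the chemokine and cytokine differences was not tested.

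In the IGF group both ligands differed, in opposite directions. Of 9 genes 5 were called higher, where 15.7% of all genes were, and 2 lower, a share near the 21.5% of all genes. Igf1 was at 761, 1079.7 and 829 FPKM in co-culture and 146, 126 and 144 in vivo (log2 difference 2.66 ± 0.12, adjusted p = 2.92e-08), and Igfbp6 at 507 ± 68.8 against 30.8 ± 14.2. Igf2, the fetal growth factor, was at 0.477 ± 0.491 against 53.4 ± 11, whereas H19, the noncoding RNA from the same imprinted locus, was at 214, 385 and 328 against 21.5, 14.8 and 17.8 (adjusted p = 6.74e-08), all co-culture libraries far above. In stroma alone H19 was at 2.38 ± 0.105 (6.48 ± 0.20, adjusted p = 4.89e-08 for co-culture against alone). Igfbp7 was lower (241 ± 9.75 against 4635 ± 495) and Igfbp3 within 2-fold.

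In the Wnt pathway ligands and secreted inhibitors differed in both directions. Of 19 genes 10 were called lower, where 21.5% of all genes were, and 6 higher, where 15.7% were. Wif1, which binds Wnt ligands, was listed at 0 in co-culture and was at 422, 447 and 508 FPKM in vivo, and Sfrp4, another secreted antagonist, was at 10.6, 14.8 and 15.6 against 2354, 2001 and 2406 (log2 difference -7.28 ± 0.14, adjusted p = 1.16e-10). The related Frzb (87.3 ± 18 against 18.7 ± 2.34) was higher, as was Sfrp2 (99.3, 383 and 134 against 39.5, 30.2 and 37.1), whose co-culture libraries differ widely. Among ligands Wnt4 was listed at 0 against 109 ± 7.13, and Wnt5a was higher at 229, 202 and 213 against 15.7, 18 and 16.7 (log2 difference 3.60 ± 0.07, adjusted p = 1.1e-10). The Wnt-induced Axin2 (2.3 ± 0.719 against 6.34 ± 1.21) and the nuclear partners of beta-catenin Lef1 (listed at 0 against 7.16 ± 0.154) and Tcf7 (3.77 ± 0.345 against 40 ± 8.5) were lower. The receptor Fzd1 was within 2-fold.

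BMP signalling genes were lower from ligand to target. In the BMP and TGF-beta list 13 of 20 genes were called lower, where 21.5% of all genes were, and 2 higher, where 15.7% were. The ligand Bmp6 was at 1.77, 2.13 and 1.92 FPKM in co-culture and 745, 639 and 669 in vivo (log2 difference -7.86 ± 0.08, adjusted p = 3.65e-12), and Bmp4 at 76.4 ± 16.7 against 216 ± 18.4. The Id genes, direct targets of BMP signalling, were all 4 lower, with Id3 at 143, 194 and 135 against 2602, 2992 and 1892 (log2 difference -3.97 ± 0.18, adjusted p = 2.63e-08) and Id4 listed at 0 against 563 ± 41.7. The inhibitory Smad6 (24.7 ± 1.09 against 155 ± 8.96) and Smad7 (25.4 ± 5.6 against 124 ± 22.4) were lower too. The higher members were Tgfb2 (194 ± 8.76 against 19.3 ± 3.99) and Inhba, the activin subunit (57.5 ± 14.4 against 5.67 ± 0.851), and the BMP antagonist Chrdl1 was within 2-fold (1149 ± 58.2 against 1323 ± 25.3).

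Cell cycle transcripts had their lowest median in co-culture among the 3 stromal groups. All 23 genes of DNA replication and mitosis were called lower than in vivo, against 21.5% of all genes, with a median of -2.46, and 18 of the 23 were also called lower than in stroma alone, where 5.07% of all genes were. Both comparisons use the co-culture libraries, so these counts are not separate evidence. Mki67, the proliferation marker, was at 4.45, 8.24 and 6.66 FPKM in co-culture, 74.2, 91.4 and 81.5 in vivo and 22.5, 26.7 and 23.1 in stroma alone. Mcm5, of the replicative helicase, was at 7.5 ± 1.5, 128 ± 10.8 and 30.7 ± 4.4 in the same order, and Ccna2, cyclin A2, at 13.1 ± 3.23, 122 ± 14.5 and 46.7 ± 7.51. The smallest difference from in vivo was that of Pcna (log2 difference -1.31 ± 0.08, adjusted p = 2.68e-07). Erythroid transcripts, which come from a lineage that divides as it matures, were higher in vivo as well (summed values above), and their part in this difference was not tested.

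Immediate-early genes, which cells switch on within minutes of a stimulus and also during tissue dissociation, stood highest in vivo. Of 21 genes 17 were called lower in co-culture, where 21.5% of all genes were, with a median of -2.58. Another 3 were called higher, a share near the 15.7% of all genes. Fos was at 786, 674 and 806 FPKM in co-culture, 10411, 9263 and 7753 in vivo and 59, 54.5 and 60.3 in stroma alone, and Egr1 at 917 ± 96.1, 7613 ± 2733 and 231 ± 4.74. Nr4a1 was at 18.6, 21.6 and 19.9 against 1041, 2370.2 and 777 in vivo, with in vivo replicate 2 the highest, and Socs3, an inhibitor of cytokine signalling, at 114 ± 29.1 against 3843 ± 1628. Klf4 (453 ± 85.9 against 163 ± 21.9) and Ier3 (985 ± 338 against 367 ± 65.8) went the other way. Compared with stroma alone, 15 of the 21 were called higher with HSPC, where 5.65% of all genes were.

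**Figure D4:**
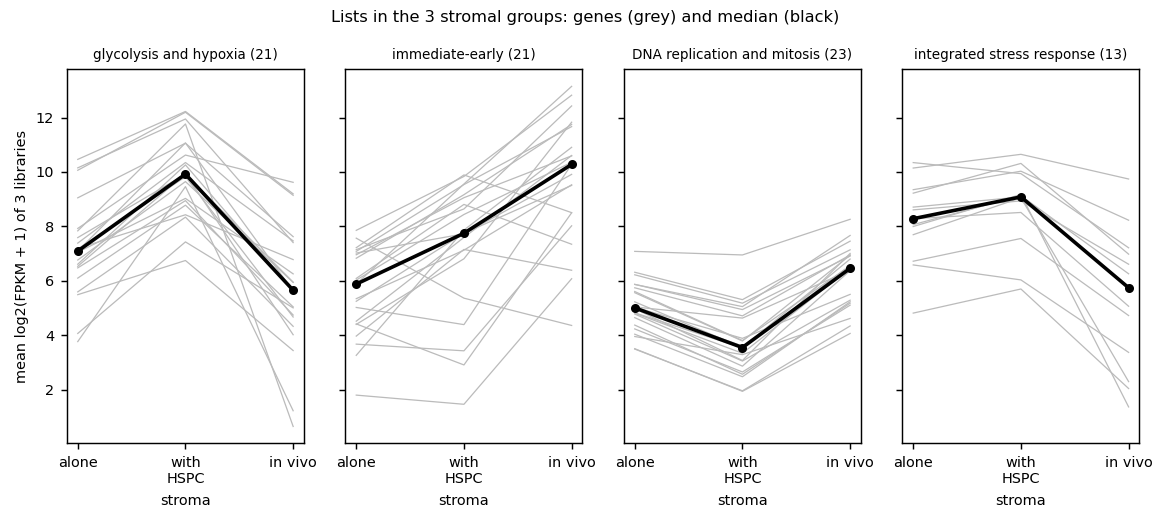
Mean log2(FPKM + 1) of each gene (grey lines) and the list median (black) in stroma alone, with HSPC and in vivo, for 4 lists. By list median, glycolysis and hypoxia genes peak with HSPC, immediate-early genes are highest in vivo, replication and mitosis genes are lowest with HSPC, and stress response genes are lowest in vivo.

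Glycolysis and hypoxia response genes were higher in co-culture, with the highest median of the 24 programs. All 21 genes were called higher than in vivo, 19 of them by at least 4-fold, where 5.76% of all genes were, and the median difference was 3.74. All 21 were also called higher than in stroma alone, where 5.65% of all genes were, and stroma alone differed from in vivo by a median of 1.27. The 2 comparisons share the co-culture libraries, so these counts are not separate evidence.

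The members with the largest differences are targets of the hypoxia-inducible factors. Car9, a surface carbonic anhydrase, was at 3447, 3372 and 3619 FPKM in co-culture, 0, 1.07 and 0.86 in vivo and 232, 229 and 222 in stroma alone (log2 difference 11.12 ± 0.22, adjusted p = 1.46e-10, co-culture minus in vivo). Egln3, a prolyl hydroxylase that marks the factor for decay, was at 577, 817 and 742 against 1.28, 1.3 and 1.44 (log2 difference 8.24 ± 0.13, adjusted p = 3.3e-11), and Bnip3, of mitophagy, at 1943, 2329 and 2183 against 42.6, 44.7 and 59.4 (log2 difference 5.44 ± 0.12, adjusted p = 2.61e-10). The groups are fully apart for all of them. Slc16a3, which exports lactate, was at 981 ± 43.6 against 15.4 ± 3.24, the glucose transporter Slc2a1 at 1241 ± 238 against 50.3 ± 11.6, and the enzymes Ldha at 4692 ± 146 against 567 ± 59.8 and Pgk1 at 906 ± 35.9 against 24.6 ± 2.52. Vegfa, the vascular growth factor, had the smallest difference (1401, 1775 and 1574 against 884, 777 and 707; log2 difference 1.00 ± 0.10, adjusted p = 1.05e-05), although with 242 ± 8.74 in stroma alone it lay above in vivo in co-culture only. Vegfa lay at the limit of 2-fold: its difference was 0.86 after trimmed-mean scaling, 0.82 after quantile normalization, 0.92 without co-culture replicate 2, and 0.99 and 0.93 without in vivo replicate 2 or 3, which ended its call. Gapdh, Eno1 and Pgk1 have many processed copies in the mouse genome, so their levels are uncertain.

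The promoters of Car9, Egln3 and Slc16a3 are shown because these are the largest differences of the list with a match to ACGTG, the core bound by hypoxia-inducible factors, or its reverse complement CACGT. Each is the 250 bases before the start in RefSeq on GRCm38.p6: Car9 at chr4:43506776-43507025, plus strand, Egln3 at chr12:54203875-54204124, minus strand, and Slc16a3 at chr11:120948817-120949066, plus strand. Capitals mark the matches, 18 bases before the start in Car9, 229 in Egln3, and 27 and 14 in Slc16a3. At least 1 match was found in 12 of 20 genes of the list with a promoter in the table (60%), beside 18.5% of all 27025 genes and 16.6% of all promoters. The list includes known targets of these factors, so this share describes the list, and their part in the differences was not tested.
Car9: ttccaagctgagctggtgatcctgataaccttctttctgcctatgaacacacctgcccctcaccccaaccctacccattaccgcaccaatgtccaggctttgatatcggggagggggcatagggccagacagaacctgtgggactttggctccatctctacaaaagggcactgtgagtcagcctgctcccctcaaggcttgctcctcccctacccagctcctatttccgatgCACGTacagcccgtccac
Egln3: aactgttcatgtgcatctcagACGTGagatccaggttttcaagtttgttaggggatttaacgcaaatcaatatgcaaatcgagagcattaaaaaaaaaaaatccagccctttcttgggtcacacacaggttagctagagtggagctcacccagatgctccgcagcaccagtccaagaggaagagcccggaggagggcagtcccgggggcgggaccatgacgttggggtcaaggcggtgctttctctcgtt
Slc16a3: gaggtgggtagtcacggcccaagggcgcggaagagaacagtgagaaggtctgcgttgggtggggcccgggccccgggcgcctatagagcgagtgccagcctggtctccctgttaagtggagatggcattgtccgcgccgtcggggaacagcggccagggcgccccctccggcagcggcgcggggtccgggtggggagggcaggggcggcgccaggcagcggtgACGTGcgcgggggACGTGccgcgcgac

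The integrated stress response, by which Atf4 raises amino acid supply genes, was also higher in co-culture. Of 13 genes 12 were called higher, where 15.7% of all genes were, and none lower. The median was 2.87, and stroma alone differed from in vivo by a median of 2.77. Trib3, a pseudokinase induced by Atf4, was at 589, 551 and 592 FPKM in co-culture and 1.19, 2.03 and 1.58 in vivo (log2 difference 7.81 ± 0.11, adjusted p = 1.35e-11), Chac1, which degrades glutathione, at 619, 407 and 593 against 4.05, 3.27 and 4.49 (log2 difference 6.76 ± 0.15, adjusted p = 3.02e-10), and Ddit3 (CHOP) at 1336, 1208 and 1279 against 139, 125 and 113 (log2 difference 3.34 ± 0.08, adjusted p = 4.9e-10). No co-culture library was near an in vivo library for these genes. The cystine transporter Slc7a11 (51.9 ± 11.4 against 3.12 ± 0.118) and the serine synthesis enzyme Psat1 (366 ± 45.7 against 32.7 ± 4.89) followed, and Atf4 itself was not called (1612 ± 175 against 857 ± 51.1; log2 difference 0.91 ± 0.09, adjusted p = 8.65e-06).

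The promoter of Chac1 (250 bases, RefSeq, GRCm38.p6, chr2:119350992-119351241, plus strand) is shown for its match, in capitals, to the composite element of Atf4 and C/EBP factors, searched as TGATGCAA or TTGCATCA, 193 bases before the start. Of 12 stress response genes with a promoter in RefSeq, 2 held it (16.7%), beside 0.918% of all 27025 genes and 0.791% of all promoters.
Chac1: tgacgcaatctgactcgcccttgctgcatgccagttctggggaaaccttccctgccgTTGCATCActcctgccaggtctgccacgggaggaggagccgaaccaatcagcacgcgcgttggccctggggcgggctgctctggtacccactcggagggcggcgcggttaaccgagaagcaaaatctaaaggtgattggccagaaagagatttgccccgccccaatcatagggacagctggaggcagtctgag

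Other metabolic programs differed less. Among 11 Nrf2 targets and metallothioneins, which answer oxidants and metals, 5 were called higher, where 15.7% of all genes were, and 2 lower, a share near the 21.5% of all genes. Hmox1, heme oxygenase, was at 1854, 2036 and 2007 FPKM in co-culture and 137, 111 and 249 in vivo (log2 difference 3.64 ± 0.24, adjusted p = 3.87e-07), and Gclc and Gclm of glutathione synthesis were within 2-fold. Of 20 tested cholesterol synthesis genes 9 were called higher, where 15.7% of all genes were, and 1 lower, with a median of 0.81. Another 9 were within 2-fold, a share near the 48.7% of all genes. Sqle, squalene epoxidase, was at 193, 132 and 167 against 28, 24.4 and 38.7 (log2 difference 2.40 ± 0.18, adjusted p = 1.09e-06), all co-culture libraries above all in vivo libraries.

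Interferon-induced genes and antigen presentation were lower in co-culture. Of 22 interferon response genes 18 were called lower, where 21.5% of all genes were, and none higher, with a median of -1.84. Isg15 was at 14.8, 15.3 and 10.2 FPKM in co-culture and 194, 204 and 181 in vivo (log2 difference -3.77 ± 0.26, adjusted p = 5.66e-07), Irf7 at 5.26 ± 1.98 against 95.5 ± 12.8, and Rsad2 (viperin) was listed at 0 against 338 ± 53.4. Ifit2 and Ifi44 were within 2-fold. All 10 MHC class I genes were called lower, against 21.5% of all genes, with a median of -3.14. The immunoproteasome subunit Psmb9 was at 3.76, 7.81 and 3.39 against 154, 179 and 135 (log2 difference -4.77 ± 0.24, adjusted p = 7.39e-08), the peptide transporter Tap1 at 17.5 ± 8.62 against 116 ± 12.8, and the light chain B2m at 4274, 5190 and 4030.2 against 12252, 12117 and 12468 (log2 difference -1.46 ± 0.15, adjusted p = 1.05e-05). The heavy chains H2-K1 (546 ± 62.8 against 5175 ± 142) and H2-D1 (528 ± 104 against 6124 ± 114) are near copies, so their split is uncertain. Leukocyte markers were lower in co-culture too, and their part in these differences was not tested.

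Positional genes, which record where in the body a mesenchymal cell came from, differed in both directions. Of 19 tested Hox and limb genes 8 were called higher, 7 lower and 4 were within 2-fold. Over all genes these shares were 15.7%, 21.5% and 48.7%. Hoxa11 was at 365, 285 and 351 FPKM in co-culture and 18.9, 15.6 and 16.7 in vivo (log2 difference 4.21 ± 0.10, adjusted p = 3.51e-10). Hoxa13 (49.9 ± 2.8 against 4.72 ± 1.47) and the hindlimb factors Tbx4 (43.9 ± 4.91 against 2.83 ± 0.436) and Pitx1 (66.1 ± 1.98 against 22.4 ± 0.609) were also higher. Hoxa5 was lower at 11.4, 11.2 and 11.8 against 105, 102 and 79.2 (log2 difference -2.94 ± 0.11, adjusted p = 6.77e-09), as was Hoxc6 (3.99 ± 0.798 against 60.9 ± 4.35), and the forelimb factor Tbx5 was listed at 0 in co-culture against 3.12 ± 1.18. Hoxa9, Hoxc10, Hoxa7 and Tbx15 were within 2-fold. Hoxa11 at 313 ± 1.27 and Tbx4 at 40.2 ± 1.28 in stroma alone stood near the co-culture level.

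Marrow endothelium was profiled in the same settings, as BMEC-Akt1 CC+HSPC and BMEC-In vivo libraries. In a fit of 12 libraries, endothelium with HSPC had 2474 genes (16.5%) higher and 2649 (17.7%) lower than endothelium in vivo among 15003 tested. Of the 3129 genes lower in co-culture in stroma by this fit, 1164 (37.2%) were also lower in endothelium, which is 43.9% of the endothelial list. Of the 2251 genes higher in stroma 767 (34.1%) were higher in endothelium, which is 31% of that list. The difference itself differed between cell types by at least 2-fold for 2816 genes (18.8%) toward stroma and 3371 (22.5%) toward endothelium.

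Replication and mitosis genes had opposite gaps. Of the 23 genes, 15 were called higher with HSPC than in vivo in endothelium, where stroma had all 23 lower, and the difference between the cell types was called for all 23. Mki67 was at 50.3 ± 3.99 FPKM in endothelium with HSPC and 16.6 ± 4.6 in endothelium in vivo (difference between the gaps, stroma minus endothelium, -5.09 ± 0.30, adjusted p = 3.24e-08). Cholesterol synthesis was raised in endothelium by a median of 3.39, with 19 of 20 genes called higher, and all 20 differed between cell types. The stress response went the other way, with 4 of 13 genes higher in endothelium at a median of 0.16 and 11 of 13 differing toward stroma. Glycolysis and hypoxia genes were raised in both, 18 of 21 in endothelium at a median of 2.70. By the test of the difference 10 of 21 were raised more in stroma and 2 less. Over all genes, 16.5% were called higher in endothelium, and the difference was called for 18.8% toward stroma and 22.5% toward endothelium.

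**Figure D5:**
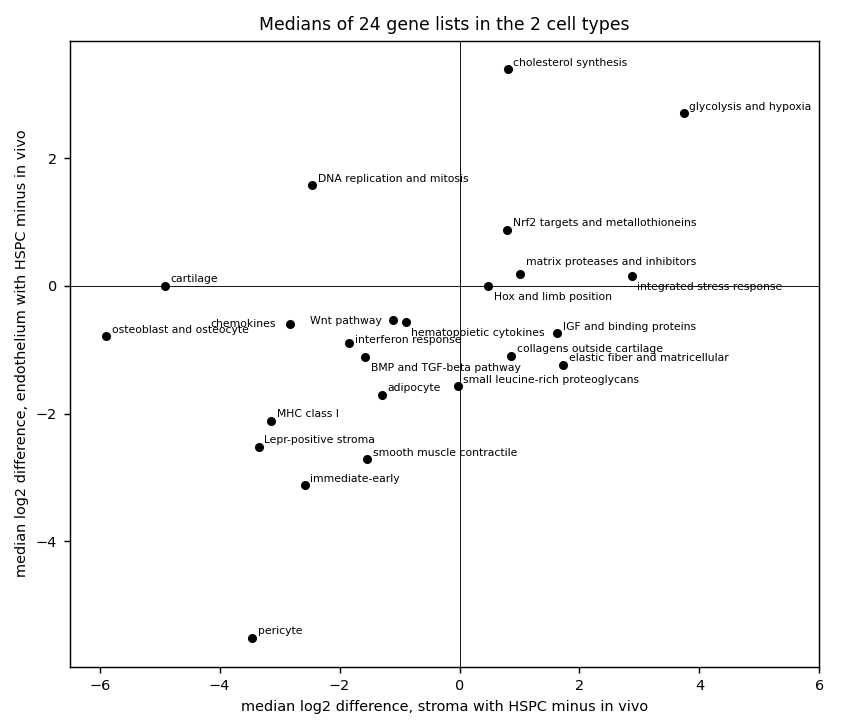
Median difference of log2(FPKM + 1), with HSPC minus in vivo, for each of 24 gene lists in stroma (horizontal axis) and endothelium (vertical axis). Glycolysis and hypoxia is high in both, replication and mitosis is at -2.46 in stroma and 1.57 in endothelium, and cholesterol synthesis is at 0.81 and 3.39.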

How the data were processed

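PolyA RNA was sequenced from mouse marrow stroma and endothelium. The authors deposited 1 FPKM per gene symbol and library, made with TopHat and Cufflinks on build mm9 per the submitters' processing notes, whose versions are not given in the sources used here. Further scaling of the FPKM is possible but not stated. Counts were not used and depth is unknown, so the spread between replicate libraries, pooled by limma over the groups of a fit, is the only measure of error. The gene lists, the comparison and the motifs were chosen with earlier results of these data known.

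Values were analysed as log2(FPKM + 1). Genes with at least 1 FPKM in at least 3 libraries of a fit were tested with limma 3.58.1 in R 4.3.3 (lmFit, eBayes with a trend) over 9 stromal libraries or, for the interaction with endothelium, 12 libraries, and p-values were adjusted by Benjamini-Hochberg over all tested genes. Stroma from the earlier cultures (BMS-Akt1 without CC) was not in the main fit. Comparisons with stroma alone come from the same fit, with their own adjusted p. They share libraries with the main one, so genes called in both are not separate evidence. Genes eligible to be named were Akt1, the 10 largest called rises and falls with separated groups and a mean of at least 5 FPKM in the higher group, up to 4 called and 3 within-2-fold members of each list, and the 4 largest interaction differences in each direction. Genes with clone names and genes of microRNAs, small nucleolar RNAs or clustered histones were excluded, and further list members were named to describe how a list splits. The fit was tested on simulated data. Alternatives were pseudocount 0.1, other filters, scalings, weights, groups in the fit and call limits, the replicate number as a block, and each library left out. Promoters came from RefSeq (GRCm38.p6) and were matched by symbol. Figures used Python 3.11.15 and matplotlib 3.10.9.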

Additional observations from a re-analysis of the deposited data

Results flagged for a closer look

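The genes below had the largest tested differences, among members of the lists, between the gap in stroma and the gap in endothelium (each with HSPC minus in vivo, in log2(FPKM + 1), limma over 12 libraries). For the endothelial genes Stab2, a scavenger receptor of sinusoids, and Cldn5, a tight junction protein, the difference of 10.08 and 9.28 arose in endothelium: Stab2 was at 1.31 ± 0.486 FPKM with HSPC and 2017 ± 178 in vivo there, Cldn5 at 3.47 ± 1.65 and 2642 ± 275, and stroma had under 1 FPKM on average of each. Angptl4, a lipase inhibitor, differed by 8.98, with 694 ± 119 FPKM in stroma with HSPC and 446 ± 91.3 in vivo, against 5.58 ± 0.906 and 2141 ± 459 in endothelium.

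Car9 differed by 8.83: its gap was 11.12 in stroma and 2.28 ± 0.32 in endothelium, where it was at 5.44 ± 0.805 FPKM with HSPC. Ccl2 had opposite gaps, -3.94 in stroma and 7.90 ± 0.49 in endothelium, where it rose from 21.7 ± 15.6 to 4664 ± 77.4 FPKM, a difference of -11.85. Ccl7 was alike at -10.18, with 93.9 ± 78.8 against 225 ± 31.3 FPKM in stroma and 395 ± 14.4 against a listing of 0 in endothelium. Bglap2 and Bglap differed by -9.55 and -9.38, since both were listed at 0 in the HSPC co-cultures of either cell type. In vivo they were high in stroma and at 10.2 ± 5.61 and 45.2 ± 26.9 FPKM in endothelium. Where a group is listed at 0, the size of these differences depends on the 1 added before the logarithm.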

How the results depend on the processing

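The counts of 2260 higher and 3089 lower genes stayed within 1.5 times under every alternative run except the call limit. Without a fold limit they were 6480 and 5304, and at 4-fold 826 and 1756. The same limits gave 5394 and 5743, and 1322 and 1884, for the interaction with endothelium (2816 and 3371 as reported). Leaving out each library in turn gave 2221 to 2363 higher and 3042 to 3133 lower genes, and 2745 to 2867 and 3321 to 3400 for the interaction. Across scalings, the share of calls that were higher ran from 36.7% (trimmed means) to 52% (quantile), beside 42.3% as deposited.

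Deviations of same-numbered libraries correlated at -0.007, -0.001 and 0.015, so no shared deviation by replicate number was seen. These values cannot tell whether same-numbered libraries share an origin, which the labels do not say. With the replicate number as a block, 2265 genes were higher and 3088 lower, and 2815 and 3371 for the interaction.

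Over 298 tested genes, those of the naming rule and those the text names, 4711 of 4755 values under 16 alternatives kept their direction and side of the threshold, and no called value changed sign. Besides those given in the report, crossings were Axin2, B2m, Mgp, Plin1, Cd79a, Gp5, Mcpt8 and Tie1 (lost) and Cebpe and Plau (gained) after quantile normalization, Axin2, Bmp4, Ccl7, Frzb, Pitx1, Plin1, Esam, Gp1bb and Mcpt8 (lost) in the fit of all 8 groups, and Mcpt8 and Tie1 (lost) without in vivo replicate 1 and 3. Akt1 reached a difference of 1.01 with equal library totals and without in vivo replicate 3. Depth is unknown, so genes listed at 0 may be present below detection.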

Other observations

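Several transcription factors known from the developing nervous system were present in cultured stroma and listed at 0 in all in vivo libraries. They were picked from the 135 genes above after their values were seen. Sox2 was at 52.7, 46.3 and 49.2 FPKM in co-culture and 84.8, 81.4 and 79.6 in stroma alone, Zic2 at 41.6, 42.2 and 39.6 and 32.8, 30.2 and 30.9, and Bhlhe22 at 131, 93.3 and 105.5 and 162, 161 and 162. Crabp1, a retinoic acid binding protein expressed in neural crest, was at 646, 1260.5 and 697 in co-culture and 4208, 4433 and 4405 in stroma alone. Xist was at most 0.61 FPKM, and each of 4 Y-linked genes at least 30.7 FPKM, in all 9 stromal libraries.

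Several secreted plasma protein genes were high in vivo and low in co-culture. Trf, transferrin, was at 2736, 2099.9 and 2662 FPKM in vivo against 0, 0.64 and 0, Agt, angiotensinogen, was at 1043, 896 and 1020.3 and listed at 0 in co-culture, and Hp, haptoglobin, of the Lepr-positive list, was at 6613, 7120.3 and 6899 against 3.32, 5.91 and 5.4 in co-culture. These were also picked after their values were seen.

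Co-culture replicate 2 stood above the other 2 libraries of its group for acute-phase and inflammatory genes, chosen after their values were seen. Cxcl1 was at 104, 451 and 130.2 FPKM, Lcn2 at 27.1, 181 and 21.7, C3 at 41.2, 325 and 78.4, Saa3 at 0, 152 and 13.5 and Nos2 at 9.4, 44.7 and 17. In vivo, Cxcl1, Lcn2 and Saa3 overlapped the co-culture, C3 was higher (817, 663 and 620.3) and Nos2 was listed at 0. Without this library Lcn2 and Saa3 were called lower, with differences of -1.99 and -3.35, and 2301 genes were called higher and 3133 lower.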
